A study of Mus musculus with 8 samples.

Results

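The uroplakin genes Upk1a, Upk1b, Upk2, Upk3a and Upk3b and the keratin genes Krt5, Krt7, Krt8, Krt18 and Krt19 were followed in RNA-seq counts of whole mouse kidneys. They were chosen by symbol, all 10 had a row among the 37583 gene rows of each count file, and all 10 passed the filter on low counts that left 15228 genes tested. The libraries labelled knockout (n = 4) came from mice with a loxP-flanked Tfap2b gene and an inducible Cre recombinase (CreERT2) under a beta-actin promoter, and those labelled wildtype (n = 4) from control littermates given only as WT. CreERT2 becomes active with tamoxifen, and a beta-actin promoter is active in most cell types rather than in 1 nephron segment. The labels do not give the inducer, its dose or time, age, sex, or the controls' Cre and loxP status. Titles give each library a number and its own code without stating what separates replicates, so p-values measure the spread between these libraries. The comparison asked which kidney transcripts differ between the genotypes.

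Uroplakins are membrane proteins of urothelium, the lining of renal pelvis, ureter and bladder, where they form rigid plaques on the luminal face of umbrella cells. They form pairs: uroplakin Ia with uroplakin II, and uroplakin Ib with uroplakin IIIa or IIIb. Keratins are intermediate filament proteins built from a type II and a type I chain. Keratin 8 (type II) and keratin 18 (type I) are partners in simple epithelia, keratin 7 (type II) and keratin 19 (type I) are found in ducts and urothelium, and keratin 5 (type II) marks basal cells of stratified epithelia, so Krt5 is not a simple epithelial keratin. In kidney, keratins 7, 8, 18 and 19 occur in collecting duct and urothelium, and keratins 8, 18 and 19 are known to increase in injured tubules.

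Gene counts came to 13435113 to 17930347 per knockout-labelled library and 13783857 to 17741722 per wildtype-labelled library. Whole-gene counts of Tfap2b, the targeted gene, averaged 245 ± 14.1 CPM in knockout-labelled libraries and 103 ± 6.73 CPM in wildtype-labelled ones (SD, n = 4 each). Counts over a whole gene include exons outside a deleted part and do not check the deletion, and all directions below are those of the labels. Values are CPM, read counts relative to a library size scaled by trimmed mean of M values (TMM). "Rose" and "fell" mean an adjusted p under 0.05 in edgeR's quasi-likelihood test across all 15228 genes, with Benjamini-Hochberg adjustment. In a bulk library, more cells of a type and more RNA per cell cannot be told apart. Adrenal cortex genes summed to 248.8 CPM in knockout 4, against 7.63 to 10.8 CPM in the other libraries. Knockout 1 had the highest sum of immune cell genes, 74.1 CPM, against 38.4 to 47.4 CPM in the other knockout-labelled libraries and 22.1 to 34.6 CPM in wildtype-labelled ones. A circadian score, the mean log2 level of clock output genes such as Dbp less that of activators such as Arntl, ran from -1.44 to 0.911 in knockout-labelled libraries and from 0.195 to 3.36 in wildtype-labelled ones (exact permutation p = 0.0571).

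Of the 10 genes, 3 rose, the keratins Krt19 and Krt18 and the uroplakin Upk3a. None fell by edgeR: 0 were lower at an unadjusted p under 0.05 and 0 by DESeq2. Fold changes of the 3 were 2.12 for Krt19, 1.78 for Upk3a and 1.61 for Krt18. The other 4 uroplakins, Krt7, Krt8 and Krt5 did not pass. Over all tested genes 11.9% passed, 6.23% rising and 5.70% falling, and the median log2 fold change of the 10 genes was 0.27 against 0.00 over all tested genes. In 4 of the 10, Upk3a, Krt8, Krt18 and Krt19, every knockout-labelled library was above every wildtype-labelled library, which held for 9.42% of the tested genes. None of the 10 lay wholly below, which held for 9.05%, 18.5% being separated in either direction. An unadjusted p under 0.05 was found for 5 of the 10, those that rose with Krt5 and Krt8, all 5 higher in knockout-labelled libraries. Over all tested genes it was found for 27.1%, counted in either direction. A fit with the clock covariate called 1 of the 10, Krt5, and library totals in place of TMM factors gave 5. TMM factors were 0.999 to 1.065 in knockout-labelled libraries and 0.951 to 0.973 in wildtype-labelled ones, and with library totals alone the median over all genes was 0.11 in log2 fold change.

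**Figure D1:**
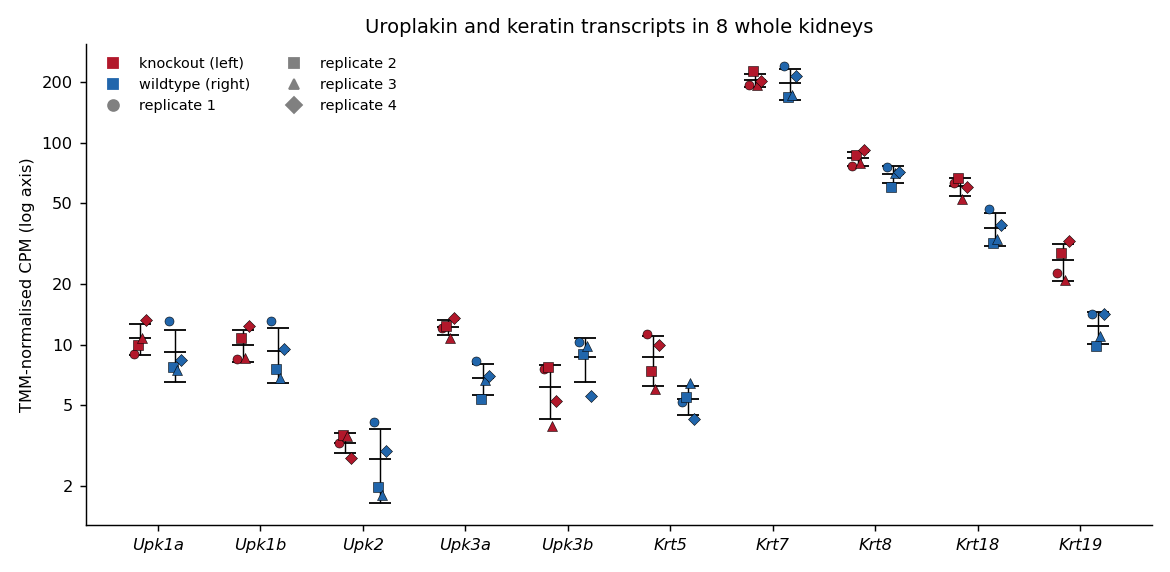
TMM-normalised CPM (log axis) of the 10 genes in each library, knockout left and wildtype right of each pair; symbols mark replicate numbers, and horizontal bars with whiskers are the mean ± SD (n = 4 each). The knockout points of Upk3a, Krt8, Krt18 and Krt19 lie above all wildtype points, while those of the other 6 genes overlap.

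Promoter windows of 300 bases, from RefSeq on GRCm38.p6, were at hand for 7 of the 10 genes and were searched on both strands for GCCNNNGGC, the letters bound by AP-2 factors, for TGANTCA (AP-1) and for TATAAA. Krt18 and Upk3a are shown because they rose, and Krt7 because it holds the AP-2 letters and did not pass. Each window runs from 250 bases before to 50 after the annotated start, 5′ to 3′ on the gene's strand; capitals mark GCCNNNGGC, which the Upk3a window does not hold.
Krt18 (chr15:102027966-102028265, + strand): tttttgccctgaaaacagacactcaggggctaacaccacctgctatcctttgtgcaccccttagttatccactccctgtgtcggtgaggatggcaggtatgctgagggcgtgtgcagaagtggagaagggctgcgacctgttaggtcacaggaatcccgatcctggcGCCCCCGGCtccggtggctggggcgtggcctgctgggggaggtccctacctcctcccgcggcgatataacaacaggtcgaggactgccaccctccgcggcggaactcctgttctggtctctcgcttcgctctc
Krt7 (chr15:101412153-101412452, + strand): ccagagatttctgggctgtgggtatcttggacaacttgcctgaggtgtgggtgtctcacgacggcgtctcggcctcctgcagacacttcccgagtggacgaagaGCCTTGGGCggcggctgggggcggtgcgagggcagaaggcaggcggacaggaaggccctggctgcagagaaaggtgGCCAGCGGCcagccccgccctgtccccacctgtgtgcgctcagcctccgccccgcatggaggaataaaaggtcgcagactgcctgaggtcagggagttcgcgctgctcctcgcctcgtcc
Upk3a (chr15:85016891-85017190, + strand): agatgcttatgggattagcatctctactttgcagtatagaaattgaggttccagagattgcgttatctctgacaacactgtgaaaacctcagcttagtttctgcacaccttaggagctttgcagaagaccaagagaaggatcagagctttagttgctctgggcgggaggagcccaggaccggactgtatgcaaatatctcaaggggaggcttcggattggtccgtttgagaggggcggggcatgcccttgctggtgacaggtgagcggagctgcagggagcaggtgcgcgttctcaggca

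GCCNNNGGC was found in 2 of the 7 windows, against 16.6% of 32851 promoter windows of the same length. It began 83 bases before the start in Krt18 and 146 and 70 bases before it in Krt7. The windows of Upk1a, Upk3a, Upk3b, Krt5 and Krt8 did not hold these letters. TGANTCA was in 0 of the 7 windows and in 7.81% of all windows. TATAAA was in 1 of the 7, in Krt8, where both strands match in overlapping letters at the annotated start, and in 13.6% of all windows. A match is a description of letters and not of binding.

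Krt19, the type I keratin that lacks most of the tail domain of its relatives, had the highest log2 fold change of the 10, except with the clock covariate, where Krt5 was higher. It stood at 22.5, 28.5, 21.0 and 32.5 CPM in knockout 1 to 4, against 14.1, 9.85, 11.0 and 14.2 CPM in wildtype 1 to 4. The lowest knockout library was above the highest wildtype library. The log2 fold change was 1.08 ± 0.17 (SE), with a 95% interval of 0.72 to 1.45 (edgeR adjusted p = 0.00245), and 2.75% of tested genes had a higher one. Leaving out each library in turn gave 0.96 to 1.18 with Krt19 called in all 8 fits. The clock covariate gave 0.91 ± 0.26 (SE) with edgeR adjusted p = 0.0801.

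Krt18, the type I partner of keratin 8, stood at 63.1, 66.5, 52.5 and 60.6 CPM in knockout-labelled libraries, against 47.1, 31.9, 33.3 and 38.9 CPM in wildtype-labelled ones. The groups did not overlap, and wildtype 1 came nearest to the knockout range. Its log2 fold change was 0.68 ± 0.12 (SE; interval 0.41 to 0.95; edgeR adjusted p = 0.00535). It was called in all 8 fits that left out 1 library. It did not pass without knockout 1 and 4 together (0.65, adjusted p = 0.0572) or with the clock covariate (0.54, adjusted p = 0.123).

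Krt8, the type II partner, stood at 77.1, 86.5, 79.2 and 91.7 CPM in knockout-labelled libraries, against 76.1, 60.2, 70.9 and 71.9 CPM in wildtype-labelled ones. The groups were separated only by the narrow gap between knockout 1 and wildtype 1. The log2 fold change was 0.26 ± 0.086 (SE; interval 0.07 to 0.45) and did not pass (edgeR adjusted p = 0.0741, unadjusted p = 0.0115). It passed with library totals only (0.37, adjusted p = 0.0188) and with upper quartile factors (0.29, adjusted p = 0.0474).

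Krt7, a type II keratin of ducts and urothelium, stood at 193.5, 226.2, 193.3 and 202.2 CPM in knockout-labelled libraries, against 240.3, 167.9, 171.7 and 214.0 CPM in wildtype-labelled ones. The wildtype libraries spanned the whole knockout range. The log2 fold change was 0.04 ± 0.12 (SE), and its 95% interval of -0.22 to 0.29 covers folds of 0.861 to 1.23 (edgeR adjusted p = 0.867). That interval does not reach the lower bound of Krt18 or Krt19, but the difference between these genes was not tested.

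Krt5, the basal cell keratin, stood at 11.3, 7.37, 6.03 and 9.95 CPM in knockout-labelled libraries, against 5.19, 5.47, 6.45 and 4.30 CPM in wildtype-labelled ones. Knockout 3 lay below wildtype 3, and the other 3 knockout libraries lay above all wildtype libraries. The log2 fold change of 0.69 ± 0.21 (SE; interval 0.23 to 1.15) did not pass (edgeR adjusted p = 0.0542). It passed with DESeq2 (adjusted p = 0.0229), without a filter (adjusted p = 0.0331) and with library totals only (0.80, adjusted p = 0.0317). It also passed with the clock covariate (1.12, adjusted p = 0.0408) and without knockout 3 (0.83, adjusted p = 0.0232). Without knockout 1 and 4 together it was 0.32 (edgeR adjusted p = 0.4) and did not pass. Nor did it pass with a replicate block (0.66, edgeR adjusted p = 0.142).

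**Figure D2:**
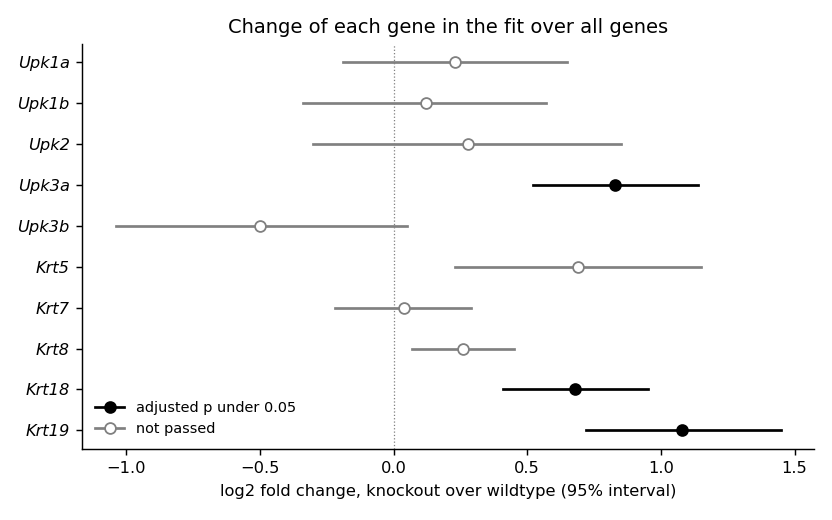
Log2 fold change of each gene, knockout over wildtype, with its 95% interval from edgeR; filled black points passed an adjusted p under 0.05 and open grey points did not. Upk3a, Krt18 and Krt19 passed, with intervals starting at 0.52, 0.41 and 0.72.

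Of the uroplakins, Upk3a, the single-pass partner of uroplakin Ib, rose. It stood at 12.1, 12.3, 10.8 and 13.5 CPM in knockout-labelled libraries, against 8.28, 5.40, 6.69 and 6.97 CPM in wildtype-labelled ones. The groups did not overlap, and knockout 3, the lowest of its group, was still above wildtype 1, the highest of the other. The log2 fold change was 0.83 ± 0.14 (SE; interval 0.52 to 1.14; edgeR adjusted p = 0.00369). It lay between 0.74 and 0.93 when each library was left out, with Upk3a called in all 8 fits, and was 0.75 with adjusted p = 0.0784 with the clock covariate.

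Its partner Upk1b, a tetraspanin, stood at 8.52, 10.8, 8.54 and 12.3 CPM in knockout-labelled libraries, against 13.1, 7.59, 6.80 and 9.51 CPM in wildtype-labelled ones. The groups overlapped fully, with the highest value in wildtype 1. The log2 fold change was 0.12 ± 0.21 (SE; interval -0.34 to 0.57; edgeR adjusted p = 0.758). Upk3b, the other partner of uroplakin Ib and in mouse also a mesothelial gene, had a negative log2 fold change, -0.50 ± 0.25 (SE; interval -1.04 to 0.05), and did not pass (edgeR adjusted p = 0.226). Its values were 7.59, 7.72, 3.97 and 5.26 CPM in knockout-labelled libraries, against 10.3, 8.98, 9.88 and 5.57 CPM in wildtype-labelled ones. Wildtype 4 lay within the knockout range.

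Upk1a, the tetraspanin that pairs with uroplakin II, stood at 8.93, 9.94, 10.8 and 13.3 CPM in knockout-labelled libraries, against 13.1, 7.73, 7.50 and 8.42 CPM in wildtype-labelled ones. Wildtype 1 stood apart from the other 3 wildtype libraries. Upk2, the partner of uroplakin Ia, ranged from 2.74 to 3.57 CPM in knockout-labelled libraries and from 1.80 to 4.14 CPM in wildtype-labelled ones. Log2 fold changes were 0.23 ± 0.19 for Upk1a (SE; interval -0.19 to 0.65) and 0.28 ± 0.26 for Upk2 (interval -0.30 to 0.85), with edgeR adjusted p = 0.485 and 0.538. These intervals include folds up to 1.57 for Upk1a and 1.81 for Upk2. Without wildtype 1 the log2 fold change was 0.44 for Upk1a and 0.54 for Upk2, and without wildtype 3 it was 0.14 and 0.12. Neither gene passed in any fit that left out 1 library.

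Depth differed widely between the genes. Krt5, Krt7 and Krt8 each overlap an annotated gene on the opposite strand, and counts made without strand do not tell the pair apart. Krt8 also has an annotated pseudogene, Krt8-ps. Neither it nor these opposite-strand neighbours have a row of their own among the gene rows. Whether their reads enter the counts of the 10 genes was not tested, so those counts are uncertain to that extent. Upk2 had 218 counts over the 4 knockout-labelled libraries and 162 over wildtype-labelled ones. Its coefficient of variation was 11.6% and 39.6% in these groups, where counting alone gives 13.5% and 15.7%. For Upk3a the coefficients were 8.92% and 17.3%, where counting gives 7.08% and 9.83%. For Krt7 they were 7.60% and 17.6%, where counting gives 1.72% and 1.83%. Several genes ranked the libraries alike: wildtype 1 was the highest wildtype library for 8 of the 10, all but Krt5 and Krt19, and knockout 3 was the lowest knockout library for 6 of the 10.

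Ratios between partners do not depend on library scaling. There were 1.22, 1.30, 1.51 and 1.51 Krt8 counts per Krt18 count in knockout-labelled libraries, against 1.62, 1.89, 2.13 and 1.85 in wildtype-labelled ones. The ranges did not overlap, and the ratio was lower in knockout-labelled libraries by a log2 difference of -0.43 (means 0.46 ± 0.16 and 0.90 ± 0.16 (SD, n = 4 each); exact permutation p = 0.0286, the lowest that 4 against 4 can give). The Upk1b to Upk3a ratio was 0.706, 0.876, 0.789 and 0.909 in knockout-labelled libraries, against 1.58, 1.40, 1.02 and 1.36 in wildtype-labelled ones. Its log2 difference was -0.70 (means -0.29 ± 0.16 and 0.40 ± 0.27 (SD, n = 4 each); exact permutation p = 0.0286). Adjusted over the 4 ratios examined, both had p = 0.0571 and did not pass (Benjamini-Hochberg on exact permutation p).

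The remaining 2 ratios overlapped between the groups. The Upk1b to Upk3b ratio was 1.12 to 2.32 in knockout-labelled libraries and 0.689 to 1.70 in wildtype-labelled ones, a log2 difference of 0.66 (exact permutation p = 0.143, adjusted p = 0.19). The Upk1a to Upk2 ratio was 2.72 to 4.82 in knockout-labelled libraries and 2.82 to 4.11 in wildtype-labelled ones, a log2 difference of -0.09 (exact permutation p = 0.743, adjusted p = 0.743). All 4 ratios were tested two-sided over the 70 assignments of the libraries.

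**Figure D3:**
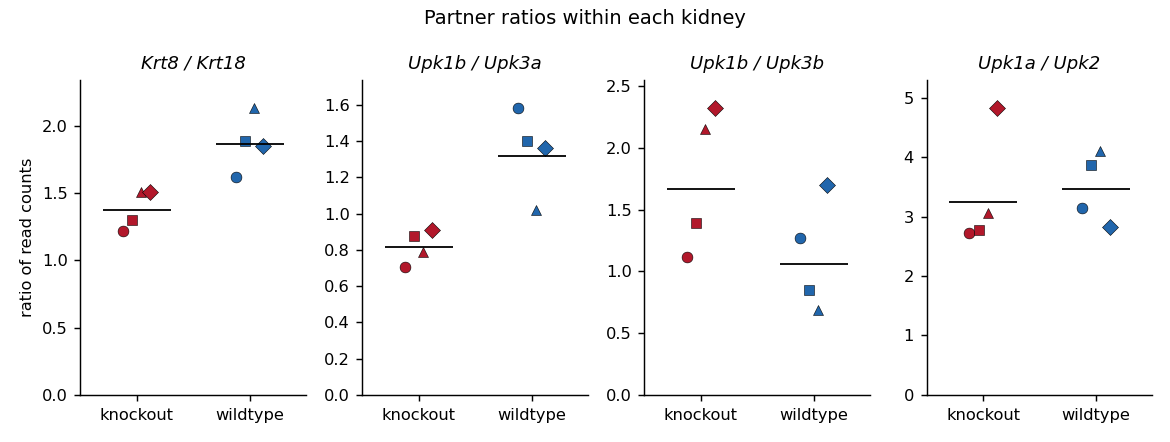
Ratio of read counts of 4 partner pairs in each library, knockout left and wildtype right; symbols mark replicate numbers 1 to 4 and lines the mean on the log2 scale (n = 4 each). Knockout and wildtype points are apart for Krt8 to Krt18 and for Upk1b to Upk3a and overlap for the other pairs.

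Levels between genes were compared per kilobase of the longest transcript tagged principal in GENCODE M21, an annotation of another build than the authors' counts. That length was 4094 bases for Krt7, 1958 for Krt8 and 1437 for Krt18. On that scale Krt7, Krt8 and Krt18 had 49.8, 42.7 and 42.2 CPM per kb in knockout-labelled libraries, against 48.4, 35.6 and 26.3 CPM per kb in wildtype-labelled ones. Over all annotated exons of Krt7, whose models include longer isoforms, its level was 28.9 CPM per kb in knockout-labelled libraries and 28.1 CPM per kb in wildtype-labelled ones. With that length Krt7 was below Krt8 in both groups and below Krt18 in knockout-labelled libraries, and above Krt18 in wildtype-labelled ones with either length. Krt19 had 16.6 CPM per kb in knockout-labelled libraries and 7.80 CPM per kb in wildtype-labelled ones, and Krt5 had 3.95 CPM per kb in knockout-labelled libraries and 2.44 CPM per kb in wildtype-labelled ones. Upk3a had the highest level per length of the uroplakins in knockout-labelled libraries, 11.2 CPM per kb, and stood at 6.25 CPM per kb in wildtype-labelled ones, where Upk1a had 6.47 CPM per kb.

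Of the summed uroplakin level per kb, Upk3a made up 38.7% ± 1.5 in knockout-labelled libraries and 28.0% ± 2.97 in wildtype-labelled ones (SD, n = 4 each). Upk3b made up 6.07% ± 1.90 in knockout-labelled libraries and 11.2% ± 3.35 in wildtype-labelled ones. Of the summed keratin level per kb, Krt7 made up 32.1% ± 1.55 in knockout-labelled libraries and 40.1% ± 1.69 in wildtype-labelled ones, Krt18 27.2% ± 1.62 and 21.7% ± 0.991, and Krt19 10.6% ± 1.46 and 6.45% ± 0.452. The groups did not overlap for the shares of Upk3a, Krt7, Krt18 and Krt19. A share moves with every gene of its sum, so these values were not tested. The 5 uroplakins together came to 37.7 to 47.1 CPM in knockout-labelled libraries, against 48.9, 31.7, 32.7 and 33.4 CPM in wildtype 1 to 4. Wildtype 1 lay above all knockout-labelled libraries, and wildtype 2 to 4 lay below them all. That sum was not tested.

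Principal cells of the collecting duct hold keratins 7, 8, 18 and 19, and most of their tested genes rose. Of 11 tested genes other than the keratins, 8 rose, with a median log2 fold change of 0.56 against 0.00 over all tested genes. Aqp3, a water channel, had 294 ± 76.7 CPM in knockout-labelled libraries and 130 ± 22.8 CPM in wildtype-labelled ones (SD, n = 4 each), and the sodium channel subunit Scnn1b had 144 ± 10.9 and 91.6 ± 11.7 CPM. Aqp4, another water channel of these cells, went the other way without passing, at 58.3, 69.8, 69.6 and 64.7 CPM in knockout-labelled libraries, against 92.5, 105.8, 315.0 and 175.4 CPM in wildtype-labelled ones (log2 fold change -1.39 ± 0.40 (SE), edgeR adjusted p = 0.067). Its groups did not overlap. On the whole list 1 gene fell with DESeq2, with limma voom, without wildtype 1 and without wildtype 3. The 12 listed genes summed to 2341.4 to 3386.8 CPM in knockout-labelled libraries and 1735.1 to 2249.8 CPM in wildtype-labelled ones. With Krt7, Krt8, Krt18 and Krt19 included, 10 of 15 tested genes rose, and 2 with the clock covariate. The part of collecting duct content in the keratin result was not tested.

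Tubular injury and repair genes also moved. Of 24 tested, 13 rose and 1, Itgb6, fell, with a median log2 fold change of 0.67. Lcn2, an iron-siderophore carrier released by injured tubules, had 9.94 ± 2.09 CPM in knockout-labelled libraries and 4.12 ± 0.334 CPM in wildtype-labelled ones, and Vcam1, an adhesion molecule, 51.5 ± 13.9 and 14.4 ± 2.09 CPM (SD, n = 4 each). Without knockout 1 and 4, 8 of these genes rose, and 7 with the clock covariate. The list's summed level was 4805.7 to 5602.2 CPM in knockout-labelled libraries and 3236.6 to 4283.9 CPM in wildtype-labelled ones. Most of it was Spp1, the secreted phosphoprotein osteopontin, at 2959.3 to 3473.2 CPM in knockout-labelled libraries and 1676.5 to 2391.2 CPM in wildtype-labelled ones. Without Spp1, a sum also added after seeing the data, the groups overlapped, at 1846.4 to 2129.1 CPM in knockout-labelled libraries and 1560.1 to 1949.4 CPM in wildtype-labelled ones. The part of tubular injury in the keratin result was not tested.

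Of 24 tested urothelial genes outside the 10, 5 rose and 1 fell, with a median log2 fold change of 0.25. Krt15, a type I keratin of basal cells, stood at 16.9, 15.1, 10.3 and 15.6 CPM in knockout-labelled libraries, against 4.36, 5.11, 6.34 and 5.03 CPM in wildtype-labelled ones. The groups were well separated, with a log2 fold change of 1.47 ± 0.17 (SE; edgeR adjusted p = 0.000489). Krt20, a type I keratin of umbrella cells, stood at 2.57, 3.45, 2.35 and 3.53 CPM in knockout-labelled libraries, against 1.13, 0.803, 1.16 and 0.788 CPM in wildtype-labelled ones (log2 fold change 1.60 ± 0.25 (SE), edgeR adjusted p = 0.00242). Cldn4, a tight junction protein, and Gata3, a transcription factor that principal cells also express, rose by log2 fold changes of 0.69 and 0.57, and Fgfr3, a growth factor receptor, fell by 0.39 on the log2 scale. The fifth was Sprr1a, an envelope precursor. Krt20 and Sprr1a also belong to the injury list, and Gata3 to the principal cell list. Cldn4 averaged 58.7 CPM in knockout-labelled libraries and 36.5 CPM in wildtype-labelled ones, above the mean of each uroplakin. Which kidney cells its reads came from was not tested.

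Defining urothelial genes that did not pass lay on both sides of 0. Trp63, the basal cell transcription factor, averaged 3.98 CPM in knockout-labelled libraries and 2.62 CPM in wildtype-labelled ones (edgeR adjusted p = 0.106), and Psca, a surface protein of urothelium, 12.0 and 17.7 CPM (adjusted p = 0.131). The whole urothelial list summed to 1056.8 to 1202.4 CPM in knockout-labelled libraries and 1018.4 to 1189.1 CPM in wildtype-labelled ones, and those ranges overlap. The largest part was Mal, at 458.1 to 531.0 CPM in knockout-labelled libraries and 471.6 to 545.1 CPM in wildtype-labelled ones. The sum therefore says little about genes at low levels, such as Krt15, Krt20 and Trp63. Krt13, a keratin of intermediate cells, had 1 count over each group and was not tested. The count of rising urothelial genes was 8 with library totals only, 3 with the clock covariate and 3 without knockout 1 and 4. The part of urothelial content in the result for Upk3a was not tested.

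Of 21 other keratin genes, 7 were tested and 2 rose, Krt15 and Krt20. Krt80, a type II keratin, had 23.3 ± 1.29 CPM in knockout-labelled libraries and 28.3 ± 3.14 CPM in wildtype-labelled ones (SD, n = 4 each; edgeR adjusted p = 0.0727), and Krt14, the type I partner of keratin 5, 2.18 ± 0.70 and 1.19 ± 0.729 CPM (adjusted p = 0.182). Of 19 tested genes of keratin linkers, desmosomes and other intermediate filaments, 2 rose and 1 fell, with a median log2 fold change of 0.08. Over all tested genes 6.23% rose and 5.7% fell. The desmosomal cadherin Dsc2 rose by 0.61 ± 0.13 (SE), the plakophilin Pkp1 rose by 1.14 ± 0.34, and Pkp4 fell by 0.60 ± 0.090 on the log2 scale. Pkp1, at 0.767 CPM in knockout-labelled libraries and 0.341 CPM in wildtype-labelled ones, was not called in any of the 8 fits that left out 1 library. Plec, which links keratin filaments to junctions, had a log2 fold change of 0.33 ± 0.099 (edgeR adjusted p = 0.0501). With library totals only, 6 genes of this list rose. Without knockout 1 and 4, and likewise with a replicate block, 0 rose and 2 fell.

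Of 16 tested regulators of epithelial keratin and junction genes, 3 rose, with a median log2 fold change of 0.14. Ehf, an ETS factor, had 92.4 ± 14.7 CPM in knockout-labelled libraries and 54.0 ± 3.62 CPM in wildtype-labelled ones (SD, n = 4 each; edgeR adjusted p = 0.00136). Grhl2 and Tfcp2l1, grainyhead-family factors of collecting duct and distal epithelium, had log2 fold changes of 0.40 ± 0.094 and 0.36 ± 0.089 (SE). Neither passed without knockout 2 or without wildtype 2, where 1 gene of the list rose. Grhl2 also did not pass without knockout 4, nor Tfcp2l1 without wildtype 1 or 4, and with the clock covariate none of the 3 passed. With a replicate block 1 of the 16 genes rose, and without knockout 1 and 4 together 2 rose.

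Of 10 tested mesothelial genes, 1 rose and 1 fell, with a median of 0.07. C3, a complement component that mesothelium shares with other cells, rose, and Gpm6a, a neuronal and mesothelial membrane protein, fell. C3 did not pass without knockout 1 and 4 together or with the clock covariate. Gpm6a passed in neither of these fits, nor without knockout 2, knockout 4 or wildtype 4, with library totals only or with a replicate block. The list summed to 463.6 to 578.1 CPM in knockout-labelled libraries and 389.3 to 454.5 CPM in wildtype-labelled ones. C3 set that direction: without it, a sum added after seeing the data, the other 10 genes came to 263.3 to 267.0 CPM in knockout-labelled libraries and 297.8 to 322.8 CPM in wildtype-labelled ones, lower in the knockout-labelled libraries with no overlap. Most of that remaining sum was Gpm6a, at 205.6 to 211.6 CPM in knockout-labelled libraries and 236.4 to 263.7 CPM in wildtype-labelled ones. The sum therefore says little about the other mesothelial genes. The part of mesothelial content in the values of Upk3b was not tested. Msln, the defining mesothelin gene, averaged 4.32 CPM in knockout-labelled libraries and 3.56 CPM in wildtype-labelled ones (edgeR adjusted p = 0.595). Of 9 tested smooth muscle genes of pelvic wall and vessels, edgeR called 0 and DESeq2 0, with 1 at an unadjusted p under 0.05 and a median of 0.01. The count was 1 with library totals only and 1 without knockout 3. These genes summed to 281.8 to 337.6 CPM in knockout-labelled libraries and 279.1 to 335.9 CPM in wildtype-labelled ones. Of 5 immune cell genes, 2 rose, Cd68 and Adgre1, and edgeR called 0 without knockout 1 and 4; without knockout 4 alone, or without wildtype 1, 2 or 4, it called 1. Of 9 adrenal cortex genes 2 were tested, and edgeR called 0, with 0 at an unadjusted p under 0.05 and 0 by DESeq2.

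**Figure D4:**
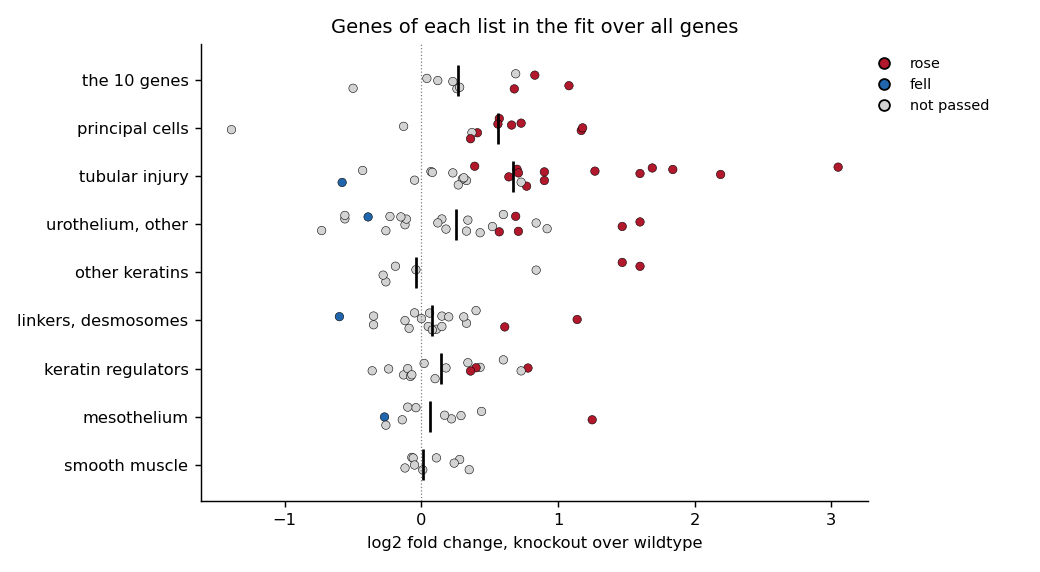
Log2 fold change, knockout over wildtype, of every tested gene of the 10 and of 8 lists (the 10 genes are shown in the top line only). Red points rose, blue points fell, grey points did not pass, and black bars are medians. Medians lie at 0.56 for principal cell genes and 0.67 for tubular injury genes, and at 0.01 for smooth muscle genes.

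The genes whose profiles over the 8 libraries were nearest to the mean profile of Krt7, Krt8, Krt18 and Krt19, by root mean square difference of centred log2 CPM, were Plet1, Epcam, Cldn7, Tspan12 and Dapp1. Their differences were 0.075 to 0.088 log2 units, against a median of 0.35 over 14051 genes, and 0.12 to 0.30 for the 4 keratins themselves. The profile holds the keratins' own difference between the groups, so the direction of these genes was set by their choice. Epcam, an epithelial adhesion molecule, had a log2 fold change of 0.57 and Cldn7, a claudin, one of 0.64. Among the 5 nearest to the mean profile of the uroplakins were P3h4, Gm4285, Cldn5 and Svbp, at 0.071 to 0.091 log2 units. Their log2 fold changes, likewise bound to the profile, were 0.14 to 0.23. Upk3a and Upk3b were 0.33 and 0.50 from their own family's mean, above the median of all genes, 0.30, while Upk1a, Upk1b and Upk2 were 0.16, 0.15 and 0.23 from it.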

How the data were processed

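RNA-seq libraries of whole kidneys were made from total RNA with a directional kit, per the labels' protocols. The deposited values are raw counts of reads per gene, 1 file per library; build mm9 and the tools STAR, HTSeq and edgeR are named, per the submitters' processing notes, without versions or annotation. The files are named not stranded, so reads of antisense partners cannot be told apart; Krt5, Krt7 and Krt8 each have 1 such neighbour in GENCODE M21. Of all records, 63.8% to 69.1% were assigned to genes, and the counter's summary rows were left out. Symbols came from a gene name table (32860 of 37583 identifiers matched).

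Genes passing filterByExpr were scaled by TMM and tested two-sided by robust quasi-likelihood F in edgeR 4.0.16 under R 4.3.3. The model held the group alone, and p was adjusted (Benjamini-Hochberg) over 15228 genes at a threshold of 0.05. Intervals are 95% and SE is the log2 fold change over the root of F. Ratios used 0.5 added counts. The 10 genes and all lists were chosen with earlier results of these data known. Named genes are the 10, up to 4 genes per list with the smallest adjusted p, 5 nearest profiles per family and Tfap2b, of which 2 are not reported here; Itgb6, Aqp4, Spp1, Fgfr3, Sprr1a, Trp63, Psca, Krt13 and Msln were named after their values were seen. Libraries of a group were distinct (chi-square per degree of freedom 9.35 to 25.0). Other settings were DESeq2 1.42.0, limma 3.58.1 (voom), other scalings, filters and thresholds, a replicate block, a clock covariate, and leaving out libraries. The fit was tested on simulated data. Reads are not independent molecules, so counting errors cover counting only.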

Additional observations from a re-analysis of the deposited data

Results flagged for a closer look

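In 140 groups of 4 values (named genes, ratios and list sums), 10 had a library whose gap to the nearest other library took up more of the group's range than Dixon's 95% critical value. Chance gives about 1 in 20. Among the 10 genes, Upk1a was highest in wildtype 1 (gap over range 0.8351). Without wildtype 1 its log2 fold change was 0.44, against 0.23 with all libraries.

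Knockout 4 was highest for the adrenal cortex sum (0.9966), Star (0.9715) and Akr1b7 (0.8472). Knockout 1 was highest for Vcam1 (0.8702), Ptprc (0.8719) and Cd3e (0.8642). Knockout 3 was lowest for Des (0.9585). Knockout 2 was highest for Tfap2b (0.8887), and wildtype 1 was lowest for Dsc2 (0.8760).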

How the results depend on the processing

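Of 268 comparisons of a main value with another setting, 229 kept their direction and side of the threshold, or stayed within 1.5 times for a count. The number of genes called, 1817 in the main fit, was 1094 with a replicate block, 700 with the clock covariate, 912 without knockout 1 and 4, 706 and 2850 at adjusted p under 0.01 and 0.10, 2417 with DESeq2 and 1076 to 1940 when each library was left out (1076 without knockout 2, 1176 without knockout 4). Of the 10 genes, 3 were called in the main fit, 5 with library totals only, 5 at adjusted p under 0.10 and 1 with the clock covariate. With library totals only, 76.5% of all calls were upward, against 52.2% in the main fit; with the clock covariate 65.7% were.

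With the clock covariate, log2 fold changes were 0.91 for Krt19, 0.75 for Upk3a and 0.54 for Krt18, no longer called, 1.12 for Krt5, then called, and -0.23 for Upk1a, -0.34 for Upk1b, -0.20 for Upk2 and -0.18 for Krt7, of opposite sign to the main fit. For Krt19, Upk3a and Krt18 the SE was 0.26, 0.22 and 0.18 with the clock covariate, against 0.17, 0.14 and 0.12 in the main fit. The clock score was mostly lower in knockout-labelled libraries, so that fit separates group from score only in part. Without knockout 1 and 4, Krt18 had 0.65, no longer called, and Krt5 had 0.32. Krt5 was called with library totals only (0.80), DESeq2 (0.69) and no filter (0.69), and Krt8 with library totals only (0.37) and upper quartile factors (0.29). Leaving out each library gave 0.11 to 0.44 for Upk1a, 0.12 to 0.54 for Upk2, -0.66 to -0.33 for Upk3b, -0.01 to 0.33 for Upk1b, -0.04 to 0.14 for Krt7 and 0.53 to 0.83 for Krt5, with Akr1b7 at -0.12 to 0.68 and Cd3e at -0.08 to 0.68. Of other named genes, the sign changed for Akr1b7 without knockout 4 (-0.12) or knockout 1 and 4 (-0.14), for Cd3e without knockout 1 (-0.08) or knockout 1 and 4 (-0.02), and with the clock covariate for Gm4285 (-0.04), Cldn5 (-0.11) and Svbp (-0.02). The causes were not tested.

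The log2 difference of the Krt8 to Krt18 ratio was -0.41 without knockout 1 and 4 and -0.50 to -0.37 with each library left out. That of Upk1b to Upk3a was -0.67 and -0.82 to -0.61. With 1 library left out, exact permutation p was under 0.05 in 6 of 8 tests for Krt8 to Krt18. For Upk1b to Upk3a it was under 0.05 in 4 of 8. The highest exact permutation p was 0.0571 for both ratios, where 0.0286 was the smallest possible. Without knockout 1 and 4 the smallest exact p is 0.0667, and with a replicate block, where the differences stay -0.43 and -0.70, it is 0.125, so neither can pass. The replicate numbers gave no evidence of pairs: correlations of same-numbered libraries' deviations were -0.215 to 0.157, and 1 of 4 knockout libraries was closest to its own number. The replicate block called the same 3 of the 10 genes.

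Depth limits Upk2 most, with 162 counts over the libraries labelled wildtype.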
